A study of Mus musculus with 24 samples.

Results

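Resting myotubes held at 1 % O2 were compared with resting myotubes held at 5 % O2, across all genes and with most room for the genes outside the hypoxia response and glycolysis. The comparison uses 12 of the 24 libraries of the series, namely the non-stimulated groups 1 % CTRL and 5 % CTRL with 6 libraries each, chosen by their labels. The files list 55487 genes, and the 14541 that reached a normalized count of 10 in 6 or more of the 24 libraries were tested.

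The cells were C2C12, a mouse myoblast line with the genotype given as WT, which fuses into multinucleated myotubes when serum is lowered. All cultures were differentiated under 5 % O2 and taken on day 5, after 2 h of exposure to 1 % O2 or to 5 % O2. When the non-stimulated cultures were harvested relative to the stimulation is not stated in the sources used here. The remaining 12 libraries, 1 % STIM and 5 % STIM, received the same exposure and were then electrically stimulated. Each condition had 6 biological replicates with a library each. The control was 5 % O2 and not room air, and every library came from the same cell line.

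Cells sense low O2 mainly through prolyl hydroxylases that use O2 to mark hypoxia-inducible factor for destruction, and when they slow down the factor accumulates and switches on genes for glucose uptake, glycolysis and blood vessel growth. Many other enzymes need O2 as well, among them histone and DNA demethylases, the hydroxylases that mature collagen and the respiratory chain. Low O2 is also known to slow energy-costly processes such as the building of ribosomes, and a myotube has left the cell cycle for good, while undifferentiated myoblasts in the same dish may still divide.

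Depth was even, with 26541858 to 28173745 reads in each of the 12 resting libraries. The 10 myotube markers were all present, with a summed normalized count of 428556 to 490553 in 1 % CTRL and 496336 to 544306 in 5 % CTRL, so the cells carried the markers of their label. The sum was lower in 1 % CTRL, without overlap. The 5 markers of undifferentiated myoblasts summed to 1791 to 2688 and 1951 to 2233, in the same order. The 4 fibroblast markers summed to at most 353, the 4 macrophage markers to at most 89, the 4 endothelial markers to at most 17 and the 4 adipocyte markers to at most 5, and Tcf21, Adgre1, Plin1 and Cidec were at 0 in all 12 libraries. In bulk RNA, fewer cells of a type and less RNA per cell cannot be told apart.

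One library stood apart. Replicate 1 of 1 % CTRL correlated with the other 5 of its group at a mean r of 0.985, against 0.989 or more for each other resting library, and its values relative to each gene's mean over the 24 libraries increased with exon length by 0.0945 log2 units per doubling of length, against −0.0367 to −0.0125 in the rest of its group. It also held the highest summed myoblast markers, and values without it are given for some of the results it moved.

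Lowering O2 at rest moved most of the transcriptome by small amounts. Of the genes tested, 8708 (59.9 %) passed an adjusted p of 0.05 in limma, 4271 of them higher in 1 % CTRL (29.4 %) and 4437 lower (30.5 %). Only 505 rose by at least 2-fold (3.47 %) and 274 fell by as much (1.88 %), and in 5548 genes (38.2 %) the 2 groups of 6 libraries did not overlap. Of the calls, 49.0 % were higher. This split rests on the scale. With libraries rescaled to the same total the median of all genes moved by 0.0807 log2 units and 62.7 % of calls were higher. The shares of all genes, 29.4 % higher and 30.5 % lower, are the background for the list counts below. A list near both does not stand out.

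**Figure D1:**
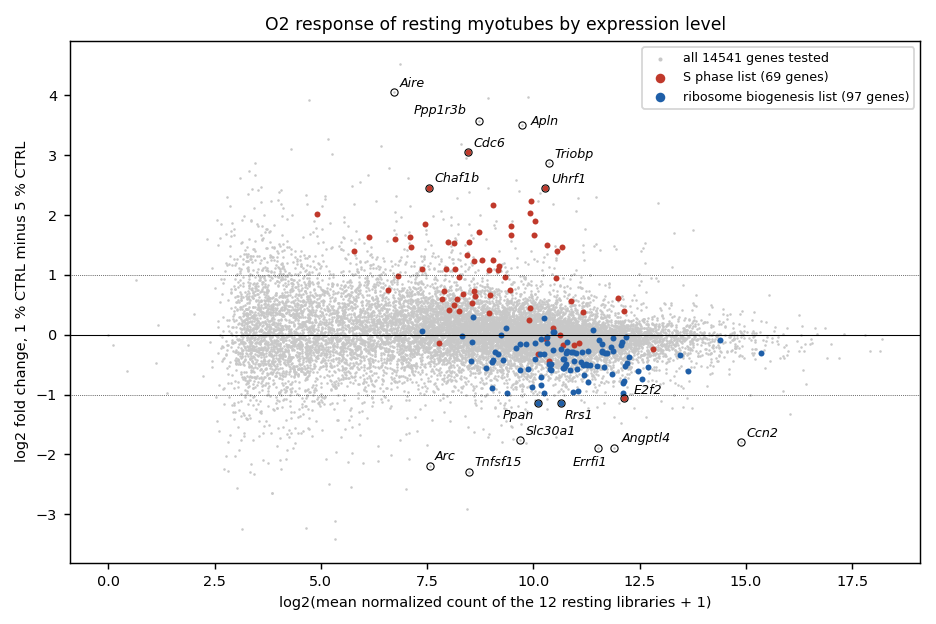
Each point is 1 of the 14541 genes tested, with its mean level in the 12 resting libraries on the x axis and its log2 fold change between 1 % CTRL and 5 % CTRL on the y axis. Dotted lines mark a 2-fold change, the 69 genes of the S phase list (red) lie mostly above 0 and the 97 genes of the ribosome biogenesis list (blue) mostly below it.

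The share of genes called, and its direction, varied with expression level. Among protein-coding genes split into 5 equal bins by their mean normalized count, 26.7 % of the lowest bin were called higher and 18.4 % lower, whereas in the highest bin 20.7 % were higher and 49.7 % lower. Changes of at least 2-fold were more frequent at low levels, with 7.84 % higher and 4.73 % lower in the lowest bin. In the highest bin these shares were 0.62 % and 0.81 %. The median log2 fold change ran from 0.06 in the lowest bin to −0.07 in the highest. Both are smaller in size than the 0.0807 by which rescaling moved the median of all genes. Calls varied with RNA class too. Of 45 transcripts annotated as non-coding RNAs from a bidirectional promoter, 51.1 % were called higher and 6.67 % lower, with a median of 0.49, while protein-coding genes had a median of −0.00.

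Outside the hypoxia and glycolysis lists, the largest rises belonged to genes of unlike function. Aire encodes a transcription factor best known for letting thymic epithelium display tissue-specific proteins. Its normalized count was 8.14, 10.2 and 15.5 (lowest, median and highest of 6) in 5 % CTRL and 169, 198 and 227 in 1 % CTRL. The groups were far apart, with 4.05 ± 0.17 as the log2 fold change and its standard error (adjusted p = 3.48e-20), although the gene was nearly silent at 5 % O2.

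Ppp1r3b, which brings protein phosphatase 1 to glycogen and so favours glycogen synthesis, had 51.3, 66.3 and 77.5 in 5 % CTRL and 713, 754 and 889 in 1 % CTRL and rose by 3.57 ± 0.11 log2 units (adjusted p = 1.88e-23). Apln, a secreted peptide that acts on blood vessels through the apelin receptor, had 116, 138 and 154 against 1452, 1541 and 1651, with a log2 fold change of 3.50 ± 0.085. Both genes were already expressed at 5 % O2. Triobp, an actin-binding protein, rose from a median of 318 to 2272 with a log2 fold change of 2.87.

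Trerf1, a transcriptional co-regulator, rose by 2.78 log2 units from a median of 24.9 to 174. Rnf152, a ubiquitin ligase of lysosomes, rose by 2.55 and Proser2 by 2.62. Kbtbd11, a kelch-repeat protein, rose by 2.58 and Cables1, a linker of cyclin-dependent kinases, by 2.67, but 24.8 % of the exon sequence of the first and 34.2 % of that of the second is covered by an antisense gene, and the counting is not stated to use strand. The other 3 of the 12 are Cdc6, Chaf1b and Uhrf1, which copy or package DNA.

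**Figure D2:**
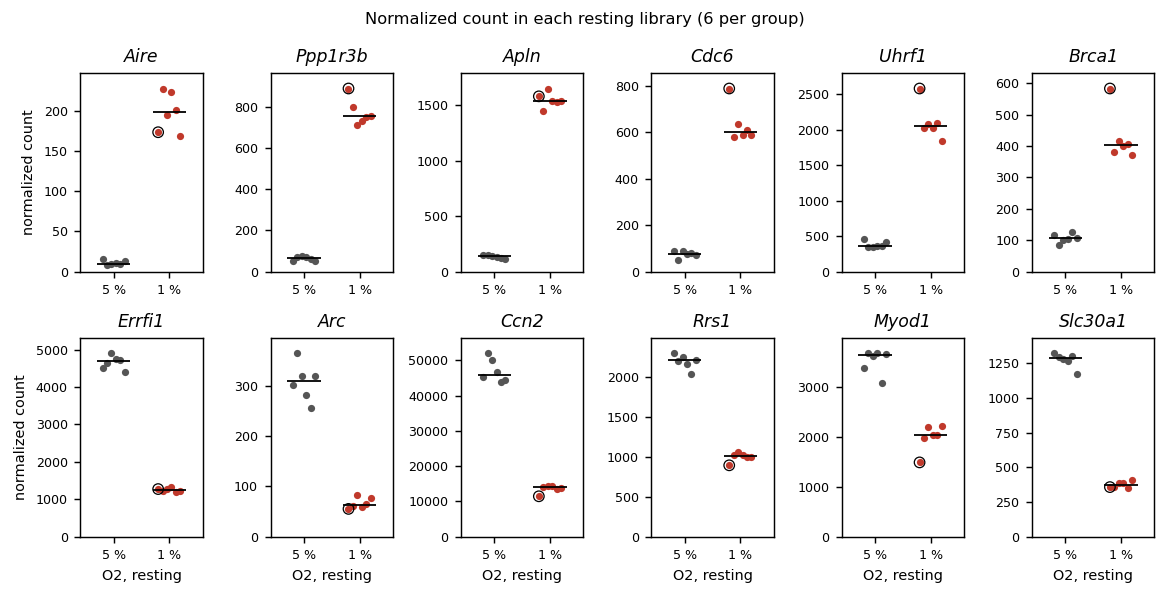
Normalized count of 12 genes in each resting library, with 5 % CTRL in grey, 1 % CTRL in red, 6 points per group and a bar at the median, on axes that start at 0. In every panel the 2 groups are separate. For Aire, Ppp1r3b, Apln, Cdc6, Uhrf1, Errfi1, Arc and Ccn2 this was a condition of choice. Replicate 1 of 1 % CTRL (ringed) is the highest of its group for Ppp1r3b, Cdc6, Uhrf1 and Brca1. It is the lowest for Arc, Ccn2, Rrs1 and Myod1.

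Replication genes rose as a block. Of the 69 tested genes on the S phase list, 59 were called higher and 7 lower, 34 rose by at least 2-fold, and the median log2 fold change was 0.98, against 29.4 % higher and a median of 0.00 for all genes. Cdc6, which loads the replicative helicase onto origins, had 51.9, 78.2 and 88.0 in 5 % CTRL and 580, 600 and 788 in 1 % CTRL, with a log2 fold change of 3.06 ± 0.10 (adjusted p = 1.32e-22). The highest value was replicate 1, and without it the change was 2.99. Uhrf1, which guides DNA methylation after replication, had 344, 361 and 467 against 1835, 2049 and 2580, a change of 2.45, or 2.39 without replicate 1. Chaf1b, a subunit of the chromatin assembly factor behind the fork, went from a median of 56.8 to 301.

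All 6 subunits of the MCM2-7 helicase, a family singled out after its values were seen, rose by 0.96 to 2.23. Mcm5 went from a mean of 343 ± 47.0 (SD, n = 6) to 1610 ± 186 and Mcm3 from 440 ± 33.1 to 1658 ± 188. A few regulators fell. E2f2, a member of the E2F transcription factor family, had 5989, 6027 and 6402 in 5 % CTRL and 2717, 2944 and 3131 in 1 % CTRL and fell by 1.05 ± 0.034 with no overlap. E2f8, a repressive member of that family, fell by 0.44, and 11.2 % of its exon sequence is covered by an antisense gene. Ccnd2, a D-type cyclin of the first growth phase, fell by 0.32, and all 3 cyclin D genes, a set also singled out after its values were seen, were called lower, by 0.14 to 0.32.

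Mitotic genes did not share the size of this rise. On the list for G2 and mitosis, 29 of 61 were called higher and 11 lower, with a median of 0.16, and 2 rose by 2-fold. With libraries rescaled to the same total 32 were higher and 6 lower. Cenpk, a kinetochore protein, rose by 1.35 from a median of 26.1 to 71.4, and the condensin subunits Ncaph and Ncapg2 rose by 1.08 and 0.96. Ccnb1, the cyclin that drives entry into mitosis, had 379, 434 and 456 in 5 % CTRL and 256, 298 and 362 in 1 % CTRL and fell by 0.50 (adjusted p = 1.06e-06), although 18.9 % of its 75-base words also occur in other genes, among them its pseudogene. Cenpa, the centromeric histone, fell by 0.54. Aspm, a spindle pole protein, fell by 0.46, although its groups overlapped.

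Replicate 1 of 1 % CTRL stood highest on the mitotic list. Relative to the mean of 5 % CTRL, the median of the mitotic list was 0.52 in that library and −0.01 to 0.24 in the other 5, and without it 24 members were higher, 13 lower and the median was 0.11. The S phase median was 1.18 in that library and 0.95 to 1.01 in the other 5, and without it 58 members were higher and 7 lower. Among the myoblast markers, Pax7 and Myf5, which mark muscle precursors, rose by 0.69 and 0.63, Mki67, a mark of dividing cells, had a log2 fold change of −0.04 (adjusted p = 0.766), and Ccnb1 and Id3 fell. What part such cells had in the S phase values was not tested.

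Repair of broken and stalled DNA moved with replication. Of 49 genes of homologous recombination and the Fanconi pathway, 41 were called higher, 15 of them by 2-fold, and 4 lower, with a median of 0.73. Brca1, a scaffold of that repair, had 85.4, 106 and 128 in 5 % CTRL and 370, 404 and 583 in 1 % CTRL, a change of 1.98 ± 0.099 (adjusted p = 6.13e-18), or 1.88 without replicate 1. Exo1, a nuclease that trims DNA ends, rose by 1.72, and Brip1, a helicase partner of Brca1, rose by 1.54. Rbbp8, which starts end resection, fell by 0.37. In the Reactome sets, the shares called higher were among the highest in DNA strand elongation with 31 of 32 and mismatch repair with 15 of 16, and neither had a member called lower. These sets share many genes.

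Genes that hold or pace the cycle were mixed. Cdkn1b, the kinase inhibitor p27, had 701, 756 and 788 in 5 % CTRL and 1480, 1641 and 1661 in 1 % CTRL, a rise of 1.09 ± 0.043. On the list of p53 targets and BCL2 family genes, 17 of 40 were higher and 12 lower. Bmf and Bcl2, which promote and block cell death, rose by 0.84 and 0.75, while Plk3, a stress-linked polo kinase, fell by 1.54. Of 19 replication-dependent histone genes tested, 6 were higher and 3 lower with a median of 0.21, or 9 and 2 with a median of 0.33 without replicate 1 of 1 % CTRL. The list holds 67 such genes and the libraries held polyadenylated RNA, so these counts cover only part of the class. Hist1h1c, a linker histone whose messenger can carry a poly(A) tail, rose by 1.40 from a median of 540 to 1407.

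Promoter sequence was not used to choose the replication genes, and part of them share a motif. E2F factors bind sites of the form TTTCCCGC, TTTCGCGC, TTTGCCGC or TTTGGCGC, and these letters were searched on both strands of RefSeq promoters on GRCm38.p6, each running from 250 bases before to 50 bases after a transcription start. Such a site was found in 24 of 67 promoters of the S phase list (35.8 %), in 22.0 % of 41 promoters of the repair list and in 10 % of 60 promoters of the mitotic list. Among all 32851 promoters the share was 2.26 %, and among those of genes tested 3.77 %. Many members are known E2F targets, and a match is a description of the letters, not of binding.

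The first 3 promoters shown here belong to strongly raised S phase genes whose window holds such a site, and the fourth belongs to a raised clock gene described later. Mcm5 and Mcm3 were chosen after their values were seen. Capitals mark the E2F-type letters, which in Mcm5 overlap on opposite strands, and in the last promoter they mark CACGTG.

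Cdc6, chr11:98907901-98908200, plus strand: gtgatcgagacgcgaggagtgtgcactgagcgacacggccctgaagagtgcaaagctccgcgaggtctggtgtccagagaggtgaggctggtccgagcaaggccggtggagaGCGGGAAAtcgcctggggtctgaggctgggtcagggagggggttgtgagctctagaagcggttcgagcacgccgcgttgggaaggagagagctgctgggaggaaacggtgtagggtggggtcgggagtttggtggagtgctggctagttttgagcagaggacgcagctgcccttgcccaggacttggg
Mcm5, chr8:75109259-75109558, plus strand: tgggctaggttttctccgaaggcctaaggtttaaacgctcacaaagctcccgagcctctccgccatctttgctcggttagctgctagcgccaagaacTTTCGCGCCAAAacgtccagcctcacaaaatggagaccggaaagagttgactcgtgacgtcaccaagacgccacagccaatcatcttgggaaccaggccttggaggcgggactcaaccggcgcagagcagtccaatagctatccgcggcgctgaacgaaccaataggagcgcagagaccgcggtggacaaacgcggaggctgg
Mcm3, chr1:20820263-20820562, minus strand: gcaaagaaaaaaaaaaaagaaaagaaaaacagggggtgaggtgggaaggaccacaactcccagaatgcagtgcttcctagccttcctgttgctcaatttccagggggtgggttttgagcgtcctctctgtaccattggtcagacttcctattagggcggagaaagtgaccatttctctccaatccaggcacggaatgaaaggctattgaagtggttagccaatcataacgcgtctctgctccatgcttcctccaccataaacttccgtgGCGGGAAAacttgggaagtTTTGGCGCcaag
Ciart, chr3:95882179-95882478, minus strand: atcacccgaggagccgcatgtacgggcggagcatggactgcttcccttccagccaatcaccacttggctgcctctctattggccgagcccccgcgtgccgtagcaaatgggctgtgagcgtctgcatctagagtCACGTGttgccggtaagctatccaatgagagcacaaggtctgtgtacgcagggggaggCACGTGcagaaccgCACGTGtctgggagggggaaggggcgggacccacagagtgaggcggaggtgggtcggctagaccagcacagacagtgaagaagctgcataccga

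The core letters bound by hypoxia-inducible factor showed another distribution. ACGTG, searched on both strands, was found in 25.02 % of 13644 promoters of genes tested and in 19.6 % of all promoters. It was found in 41.1 % of 56 promoters of genes with a log2 fold change of 2 or more, in 25.4 % of 386 promoters of genes between 1 and 2, and in 16.8 % of 244 promoters of genes below −1. The hypoxia and glycolysis lists held it in 48.0 % of 100 promoters. Among other genes raised at least 2-fold the share was 25.2 %, close to that of all genes tested. The related core GCGTG was in 55.4 % of promoters at 2 or more and 49.3 % of those of all genes tested.

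**Figure D3:**
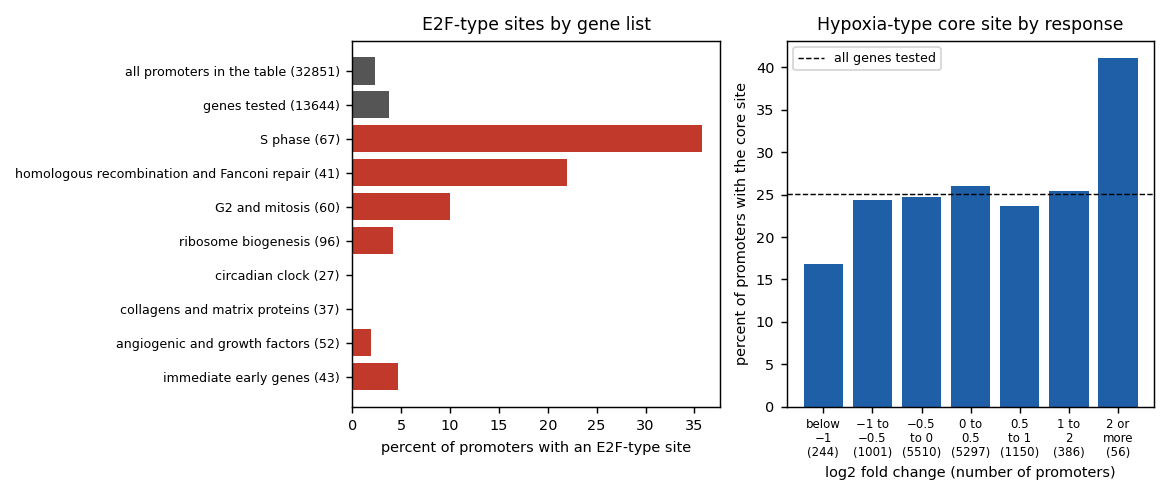
Left, percent of RefSeq promoters that hold an E2F-type site on either strand, by gene list, with the number of promoters in brackets and reference sets in grey. Right, percent that hold ACGTG by bin of log2 fold change between 1 % CTRL and 5 % CTRL, with a dashed line for all genes tested. The S phase list (35.8 %) and the genes with a log2 fold change of 2 or more (41.1 %) stand highest.

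Of the 42 lists, ribosome biogenesis had the largest share called lower. Of 97 tested genes of ribosome biogenesis, 83 were called lower and 2 higher, with a median of −0.40, against 30.5 % lower and a median of 0.00 for all genes. Rrs1, an assembly factor of the large subunit, had 2037, 2214 and 2302 in 5 % CTRL and 895, 1013 and 1060 in 1 % CTRL and fell by 1.13 ± 0.043 (adjusted p = 1.55e-21). Ppan, another large-subunit factor, had 1335, 1573 and 1637 against 554, 703 and 781, and also fell by 1.13. The groups did not overlap for either gene. Urb2 fell by 0.98. Of RNA polymerase I subunits and 2 of its factors, a set of 7 singled out after its values were seen, 5 were called lower, the largest fall being 0.77.

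The exceptions were small. Nop10, a protein of the particles that modify ribosomal RNA, had a log2 fold change of 0.30 and its groups overlapped. The fall was broad and shallow, with 2 of 97 genes down by 2-fold, and the median was −0.32 with libraries rescaled to the same total, where 74 were lower and 3 higher, and −0.40 without replicate 1. Among symbol stems with at least 12 tested genes, the 6 with the highest share called lower included several of RNA-acting proteins. Trmt (transfer RNA methyltransferases) had 11 of 15 lower and 2 higher. The RNA helicases Ddx had 20 of 32 lower and 4 higher, and Dhx had 10 of 16 lower and 2 higher. The RNA-binding Rbm genes had 21 of 34 lower and 5 higher. These stems were picked for that share, some of their genes may also be on the list, and their counts were not rescaled.

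Ribosomal proteins themselves did not follow. Of 84 cytosolic ribosomal protein genes, 10 were called higher and 4 lower, with a median of 0.11. This count turned on 1 library, since without replicate 1 of 1 % CTRL 52 were higher and 4 lower with a median of 0.17, and that library's own median was −0.26 relative to 5 % CTRL. With libraries rescaled to the same total 32 were higher and 3 lower. Rplp1 had 5612, 6172 and 8029 in 5 % CTRL and 5527, 8333 and 9640 in 1 % CTRL, with overlap, and 45.9 % of its words occur in other genes. Rps2 and Rps18 fell by 0.63 and 0.59 but share 36.0 % and 18.1 % of their words with other genes, so these values are uncertain. Of 78 mitochondrial ribosomal proteins, 18 were higher and 10 lower, or 29 and 9 without replicate 1 and 30 and 4 with libraries rescaled.

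Charging of transfer RNA and splicing were divided. Of 37 aminoacyl-tRNA synthetases, 12 were higher and 15 lower, and the median of −0.02 turned to 0.06 with libraries rescaled to the same total, where 14 were higher and 13 lower. Tars, the threonine enzyme, had 12267, 12609 and 12762 in 5 % CTRL and 7501, 7794 and 8072 in 1 % CTRL and fell by 0.68 ± 0.026 with tight, separate groups. Cars fell by 0.57 and the mitochondrial Mars2 by 0.81. Lars2 ranged from 2057 to 6321 in 5 % CTRL alone, a spread wider than its change of 0.83.

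Of 73 splicing regulators, 27 were higher and 34 lower, with a median of −0.07 that turned to 0.01 with libraries rescaled to the same total, where 30 were higher and 25 lower. Srsf5 and Srsf7, which promote exon inclusion, fell by 0.75 and 0.64, and Rbm15, which guides RNA methylation, fell by 0.71. Mbnl3 and Rbm24, the latter a muscle splicing factor, rose by 0.99 and 0.84. Srsf5 went from 11471 to 12386 in 5 % CTRL to 6772 to 7411 in 1 % CTRL.

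Most messengers of the mitochondrial genome were lower and those of nuclear respiratory genes were not. Of 13 mitochondrially encoded subunits, 8 were called lower and 0 higher (8 and 1 without replicate 1 of 1 % CTRL), and their median was −0.34. The other 5 were not called, and the highest log2 fold change among them was 0.85. mt-Nd1, a subunit of complex I, had 73689, 79171 and 80405 in 5 % CTRL and 37674, 40683 and 44474 in 1 % CTRL and fell by 0.94 ± 0.048 (adjusted p = 1.3e-15). mt-Nd2 fell by 1.00. mt-Atp6 fell by 1.22, but 99.5 % of its words occur in a nuclear gene model, so its count cannot be assigned with certainty. Of 82 nuclear subunits, 7 were higher and 1 lower, or 27 and 1 without replicate 1 of 1 % CTRL. With libraries rescaled to the same total 21 were higher and 0 lower.

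**Figure D4:**
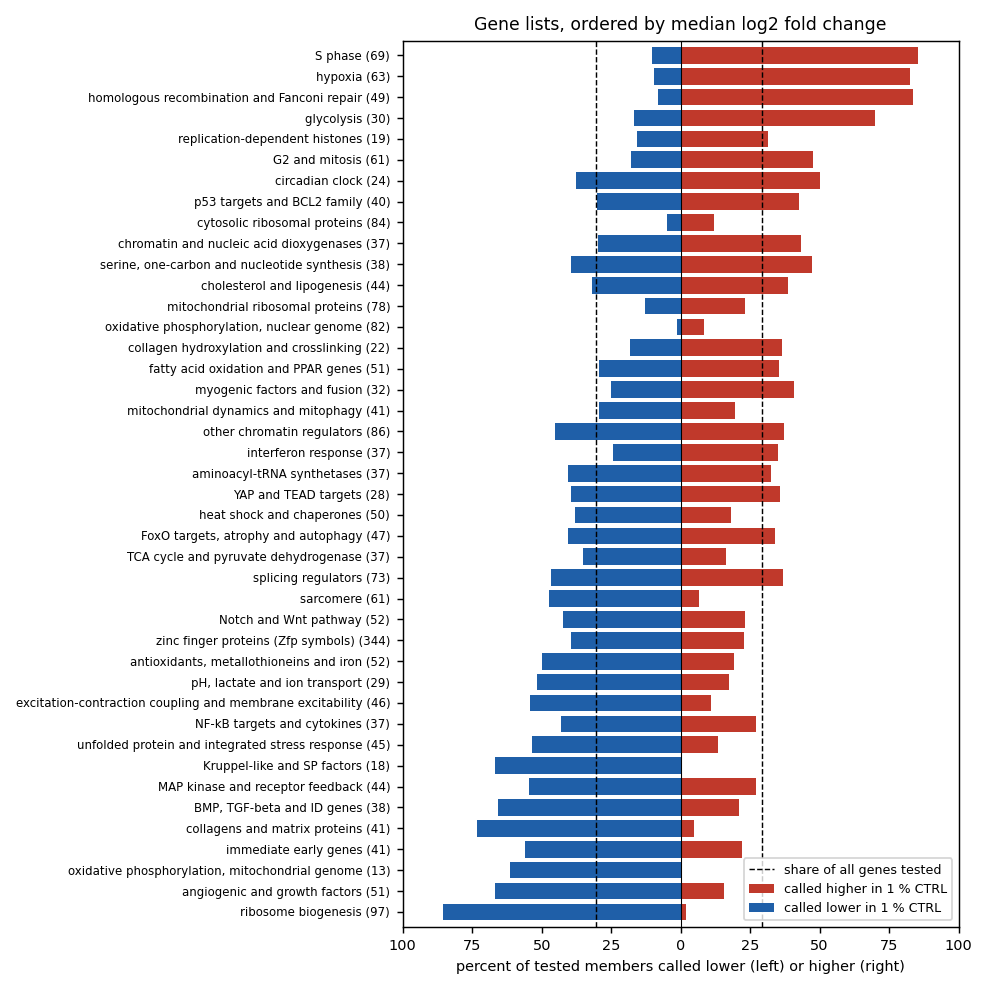
For each of 42 gene lists, with the number of tested members in brackets, the percent called higher in 1 % CTRL (red, right) and lower (blue, left), ordered by median log2 fold change. Dashed lines mark the shares of all genes tested, 29.4 % and 30.5 %, and the S phase and ribosome biogenesis lists lie at opposite ends.

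Most genes of the extracellular matrix were lower, while the genes that mature collagen were divided. Of 41 collagens and matrix proteins, 30 were called lower and 2 higher, with a median of −0.25, and 27 of 34 genes with the stem Col were lower. Thbs1, thrombospondin, had 107515, 112513 and 118328 in 5 % CTRL and 59028, 63446 and 66426 in 1 % CTRL and fell by 0.83 ± 0.031. Col11a1 fell by 0.88 and Tnc, tenascin C, by 0.59. The 6 genes of fibrillar collagens I, III and V, singled out after their values were seen, all fell, by 0.11 to 0.39. Rescaled, 24 were lower and 4 higher, with a median of −0.17. The 4 fibroblast markers were lower as well, with a summed normalized count of 204 to 266 in 1 % CTRL and 309 to 353 in 5 % CTRL, without overlap. Of these, Pdgfra fell by 0.49 and Dpt by 0.41, Tcf21 was at 0 in all 12 libraries, Thy1 was at most 5.1, and their part in the matrix values was not tested.

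Collagen hydroxylation needs O2 in the enzyme's own reaction. P4ha2, a prolyl hydroxylase, had 3624, 3763 and 3910 in 5 % CTRL and 7298, 7615 and 8091 in 1 % CTRL, a rise of 1.02 ± 0.036. Plod2, a lysyl hydroxylase, rose by 0.90 and P4ha1 by 0.66. Across the list of hydroxylation and crosslinking genes, 8 of 22 were higher and 4 lower, with 10 not called and a median of 0.04, and rescaled 13 were higher and 4 lower. The Reactome sets with the highest shares called lower included syndecan interactions with 19 of 23 and integrin cell surface interactions with 37 of 55, which share many matrix genes.

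Growth factors had the lowest median of the signalling lists. Of 51 tested, 34 were called lower, 13 of them by 2-fold, and 8 higher, 2 of them by 2-fold. The median was −0.38, and the log2 fold changes ran from −2.095 to 3.974, so the largest change was a rise. Ccn2, a matrix-bound growth factor of the connective tissue, had 43947, 45967 and 51981 in 5 % CTRL and 11422, 13977 and 14313 in 1 % CTRL and fell by 1.79 ± 0.062 (adjusted p = 3.16e-17). It fell by 1.74 without replicate 1, the lowest library, and 23.2 % of its exon sequence is covered by an antisense gene. Its relative Ccn1 fell by 1.11 from a median of 11208 to 5203. Angptl4, which blocks lipoprotein lipase, had 5525, 6042 and 6242 against 1391, 1673 and 1739 and fell by 1.88 ± 0.039. Ereg, a ligand of the EGF receptor, fell by 1.71. Vegfa, the main vessel growth factor, rose by 0.50.

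Genes that restrain growth factor signals fell along with the ligands. Errfi1, an inhibitor of EGF receptors, had 4403, 4689 and 4900 in 5 % CTRL and 1192, 1248 and 1323 in 1 % CTRL and fell by 1.89 ± 0.048 (adjusted p = 3.44e-25). Dusp6, a phosphatase that switches off ERK, fell by 1.08 and Dusp5 by 1.42, the latter with 22.1 % of its exon sequence under an antisense gene. Of 44 genes of receptor feedback, 24 were lower and 12 higher, with a median of −0.21. Spred3 and Spred2, inhibitors of Ras signalling, rose by 0.98 and 0.79, and the receptor Met rose by 0.65.

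Immediate early genes, which cells switch on within minutes of a stimulus, were also mostly lower, with 23 of 41 lower, 9 higher and a median of −0.32. Without replicate 1 of 1 % CTRL, 23 were lower and 10 higher, with a median of −0.23. With libraries rescaled to the same total 22 were lower and 9 higher, with a median of −0.24. Arc, an activity-regulated gene, had 257, 311 and 365 in 5 % CTRL and 55.1, 63.4 and 83.7 in 1 % CTRL and fell by 2.19 ± 0.14. Egr2, a zinc-finger factor of this class, fell by 1.71. Against them, Ier3 rose by 1.67 from a median of 503 to 1620, and the orphan nuclear receptors Nr4a1 and Nr4a3 rose by 1.29 and 0.88. None of these 5 genes had overlapping groups, which for Arc was a condition of choice.

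Genes of BMP and TGF-β signalling were mostly lower. Of 38 tested, 25 were lower and 8 higher, with a median of −0.25, and Reactome signalling by BMP had 16 of 21 lower. Id3, a target of BMP that holds back differentiation, ranged from 49.4 to 93.2 in 5 % CTRL and from 8.85 to 42.3 in 1 % CTRL and fell by 1.22. Tgif1, a repressor of SMAD targets, fell by 1.01. The receptor gene Acvr1b and the transcription factor gene Atoh8 rose by 1.31 and 1.26.

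In the Notch and Wnt list 22 of 52 were lower and 12 higher, with a median of −0.08, which was −0.00 with libraries rescaled to the same total. The Notch ligand Jag1 fell by 1.20 and the Wnt genes Nkd2 and Lef1 by 0.80 and 0.77, 13.7 % of the exon sequence of Lef1 lying under an antisense gene. Wnt11, among the 12 largest falls, had 105, 126 and 142 against 26.6, 34.1 and 47.9. Targets of YAP were even, with 10 of 28 higher and 11 lower, and the median of −0.02 turned to 0.06 with libraries rescaled, where 12 were higher and 8 lower, although Ccn1, Ccn2 and the kinase gene Nuak2 (a fall of 1.00) were lower. Of 18 Kruppel-like and SP factors, 12 were lower and 0 higher, with a median of −0.20, and with libraries rescaled to the same total 11 were lower and 2 higher.

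Inflammatory genes were divided. Of 37 targets of NF-κB and cytokines, 16 were lower and 10 higher. Tnfsf15, a TNF-family cytokine and the largest fall among genes that met the naming rule, had 516, 600 and 680 in 5 % CTRL and 96.9, 119 and 141 in 1 % CTRL and fell by 2.29 ± 0.094. Csf1, the growth factor of macrophages, fell by 1.01 from a median of 13587 to 6757, and Ptgs2, the inducible cyclooxygenase, fell by 0.88. Tnfsf9, of the same family as Tnfsf15, rose by 1.58, with 14.9 % of its exon sequence under an antisense gene. Tnfaip3, a brake on NF-κB, had 836, 906 and 968 against 1884, 1928 and 2113 and rose by 1.11, and the transcription factor Irf1 rose by 0.77.

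Several other large falls were spread over unlike functions. Cux2, a homeobox factor, went from a median of 102 to 23.5, and Dhrs9, a retinol dehydrogenase, from 128 to 30.7. Rhpn2 fell by 2.08. Ch25h, which makes 25-hydroxycholesterol, fell by 2.01, with 11.5 % of its exon sequence under an antisense gene. Mir17hg, the host transcript of the miR-17-92 cluster, fell by 1.84 from a median of 286 to 78.9, and Scml4, a Polycomb-related gene, by 1.81 from 1389 to 395. Zfp36l2, which binds and destabilizes messengers, fell by 1.13. In the list of Zfp symbols, 136 of 344 were lower and 78 higher, with a median of −0.10 that was −0.02 with libraries rescaled to the same total.

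Muscle identity genes were divided, and the summed myotube markers were lower in 1 % CTRL without overlap. Of these markers, Myh3, Myh8, Atp2a1 and Cacna1s fell by 0.40, 0.40, 0.30 and 0.29. Ckm, Ryr1 and Tnnt3 fell by 0.17, 0.16 and 0.09, and Acta1 and Mylpf were not called. Myod1, the factor that commits cells to muscle, had 3084, 3656 and 3684 in 5 % CTRL and 1491, 2051 and 2226 in 1 % CTRL and fell by 0.83 ± 0.092 (adjusted p = 7.83e-08), or 0.74 without replicate 1, its lowest library. Myog, which drives terminal differentiation, had 29456, 30737 and 31682 against 17829, 19609 and 20251 and fell by 0.66 ± 0.043. Myf5, Eya4 and Six5, which act earlier in the lineage, rose by 0.63, 0.56 and 1.15. Igfn1, a large muscle protein, fell by 0.74. On the whole list of myogenic and fusion genes, 13 of 32 were higher and 8 lower.

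Of 61 sarcomere genes, 29 were called lower and 4 higher, but the falls were small, and the median of −0.08 was 0.00 with libraries rescaled to the same total, where 19 were lower and 13 higher. Without replicate 1 of 1 % CTRL, 28 were lower and 8 higher. Tcap, the cap of titin, fell by 0.78, or by 0.62 without replicate 1, where it was 401 against 746 to 812 in the other 5 libraries. Tmod4 and Myot, of the thin filament and the Z disc, fell by 0.73 and 0.69. Myh4, a fast myosin, rose by 0.47, although 9.68 % of its words occur in other genes, chiefly its neighbours in the myosin cluster. For the machinery of excitation and Ca2+ release, 25 of 46 were lower and 5 higher, with a median of −0.14, and with libraries rescaled to the same total 16 were lower and 12 higher, with a median of −0.06. Kcnj12, a potassium channel, and Chrne, the adult subunit of the acetylcholine receptor, fell by 0.72 and 0.57, whereas Kcnj2, a related channel, and Jph2, which ties the surface membrane to the Ca2+ store, rose by 0.79 and 0.50.

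Genes of dioxygenases, and those of chromatin regulators, changed in both directions. Of 37 dioxygenases that use O2, 16 were higher (43.2 %) and 11 lower (29.7 %), with a median of 0.09. Among all genes the shares were 29.4 % and 30.5 %. Egln3, one of the O2-sensing prolyl hydroxylases, had 4534, 4733 and 4927 in 5 % CTRL and 14923, 15298 and 16217 in 1 % CTRL, a rise of 1.71 ± 0.030 (adjusted p = 7.28e-31). Kdm3a, a histone demethylase, rose by 1.43 and Tet1, which oxidizes methylated DNA, by 1.37. Alkbh1 fell by 0.74, and Riox1, a ribosomal oxygenase, by 1.02, with 31.9 % of its exon sequence under an antisense gene.

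Among 86 other chromatin regulators, 32 were higher and 39 lower, and the median of −0.01 turned to 0.07 with libraries rescaled to the same total, where 40 were higher and 30 lower. Cbx6 and Pcgf5, subunits of Polycomb complexes, rose by 1.38 and 1.22, from medians of 1274 and 714 to 3391 and 1634. Sirt1, a deacetylase dependent on NAD, fell by 0.84, Brd2, a reader of acetylated histones, by 0.78, and Dnmt3b, a DNA methyltransferase, by 0.77.

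Clock genes moved apart. Of 24 tested, 12 were higher and 9 lower. Rora, an activator within the clock, rose by 1.61 and Timeless, which also travels with the replication fork, by 1.83. Ciart, a repressor of CLOCK and BMAL1, had 115, 122 and 140 in 5 % CTRL and 362, 376 and 400 in 1 % CTRL, a rise of 1.58 ± 0.069. Its promoter, shown above, holds CACGTG at 3 places, and since these letters read the same on both strands and contain ACGTG, they also count as matches of the shorter core. CACGTG was in 22.2 % of 27 clock promoters in 20.9 % of 43 immediate early and 17.7 % of 96 ribosome biogenesis promoters, in 9.75 % of promoters of genes tested and in 7.15 % of all promoters. The core repressors went the other way, Per2 falling by 0.88, Cry1 by 0.80 and Cry2 by 0.64, with no overlap in any.

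Metal and redox genes were more often lower. Of 52 antioxidant, metallothionein and iron genes, 26 were lower and 10 higher, with a median of −0.12. With libraries rescaled to the same total 22 were lower and 11 higher, with a median of −0.04. Slc30a1, the zinc exporter of the plasma membrane, had 1172, 1288 and 1323 in 5 % CTRL and 352, 372 and 406 in 1 % CTRL and fell by 1.76 ± 0.054 (adjusted p = 4.97e-24). The zinc importer Slc39a10 rose by 1.13, and Tfrc, which takes up iron, by 0.94 from a median of 5318 to 9978. Gclc, the first enzyme of glutathione synthesis, fell by 0.94 and Osgin1 by 0.88.

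Of 45 genes of the unfolded protein and integrated stress responses, 24 were lower and 6 higher, with a median of −0.16, or 22 and 11 rescaled. Slc7a1 and Slc7a5, amino acid transporters, fell by 0.99 and 0.64, the first from 6388 to 6871 in 5 % CTRL to 3179 to 3464 in 1 % CTRL. Ern1, the sensor IRE1α, fell by 0.91. Heat shock genes had 19 of 50 lower and 9 higher, with a median of −0.03 that turned to 0.05 with libraries rescaled to the same total, where 13 were lower and 20 higher. Interferon genes had 13 of 37 higher and 9 lower, with a median of −0.02 that turned to 0.06 when rescaled, where 14 were higher and 4 lower. FoxO, atrophy and autophagy genes had 16 of 47 higher and 19 lower, with a median of −0.04 that turned to 0.04 under the same rescaling, where 19 were higher and 15 lower.

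Lists of metabolism beyond glycolysis had calls in both directions. Of all genes tested 29.4 % were higher and 30.5 % lower. The list of fatty acid oxidation and PPAR genes, with 35.3 % and 29.4 %, was near these shares. The pyruvate dehydrogenase kinases, which keep pyruvate out of the mitochondria, split by isoform. Pdk4 had 839, 882 and 949 in 5 % CTRL and 358, 395 and 469 in 1 % CTRL and fell by 1.14 ± 0.075, while Pdk1 rose by 0.66 and Pdk3 by 0.57. Of 37 genes of the tricarboxylic acid cycle and pyruvate dehydrogenase, 6 were higher and 13 lower, with a median of −0.04 that turned to 0.04 with libraries rescaled to the same total, where 12 were higher and 6 lower.

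Serine, one-carbon and nucleotide synthesis had 18 of 38 higher and 15 lower, and mitochondrial dynamics 8 of 41 higher and 12 lower. The median of the latter, −0.01, turned to 0.07 with libraries rescaled, where 17 were higher and 9 lower, and to 0.0069 without replicate 1 of 1 % CTRL. Of 51 genes of fatty acid oxidation and PPAR signalling, 18 were higher and 15 lower. Hilpda, which blocks lipolysis at the lipid droplet, rose by 1.83 from a median of 234 to 839. Of 44 genes of cholesterol and fat synthesis, 17 were higher and 14 lower, or 21 and 7 rescaled, and Stard4, a sterol carrier, and Lpin1, a phosphatidate phosphatase, rose by 1.14 and 1.06. The AMP deaminases differed, Ampd3 rising by 1.13 and the muscle form Ampd1 falling by 0.74. Of 29 genes of pH, lactate and ion transport, 5 were higher and 15 lower, or 9 and 13 rescaled. Slc16a3, the lactate exporter, rose from a median of 1224 to 3413, and Car2, a carbonic anhydrase, fell by 1.02. Higd1a, a mitochondrial protein of the hypoxia response, rose by 1.24, with 22.5 % of its exon sequence under an antisense gene.

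The stimulated libraries give the same change of O2 in cultures that the resting comparison does not use. There 8346 genes (57.4 %) were called, and of the 4271 genes called higher at rest 77.7 % were called higher under stimulation and 56 lower. Of the 4437 called lower at rest, 75.8 % were lower again and 37 were higher. The log2 fold changes had a Pearson r of 0.77 across 14541 genes, which are not independent replicates. The 505 genes raised at least 2-fold at rest had a median of 1.305 at rest, where they were chosen, and 1.06 under stimulation. The S phase list had a median of 0.72 under stimulation and ribosome biogenesis one of −0.23.

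The response itself differed between rest and stimulation in 1645 genes (11.3 %) by the interaction test in limma, or in 2316 without replicate 1 of 1 % CTRL. Large differences were found in inflammatory genes. Tnfaip3 rose by 1.11 at rest and had a log2 fold change of −0.32 under stimulation, a difference of −1.43, and Irf1 and Ier3 differed by −1.28 and −1.26. Lif, a cytokine, and Nfkbia, the inhibitor of NF-κB, were slightly higher in 1 % CTRL (0.17 and 0.22, with overlap) and differed by −1.65 and −1.46. The chemokine genes Ccl2 and Ccl7 fell at rest by 1.10 and 0.84 from medians of only 19.1 and 35.2, and their difference was −3.28 and −2.32. Zc3h12a, which degrades inflammatory messengers, differed by −1.41.

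In the other direction, the fall of Angptl4 and Scml4 was smaller under stimulation, by 0.97 and 0.71. Otud1, a deubiquitinase, fell by 0.79 at rest and had 0.22 under stimulation, and Ddit4l, an inhibitor of mTOR signalling, rose by 0.70 at rest and 1.52 under stimulation. Of the leading risers at rest, Aire, Ppp1r3b, Trerf1 and Rnf152 were not called in the interaction, and Cdc6, Triobp and Apln rose less under stimulation.

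**Figure D5:**
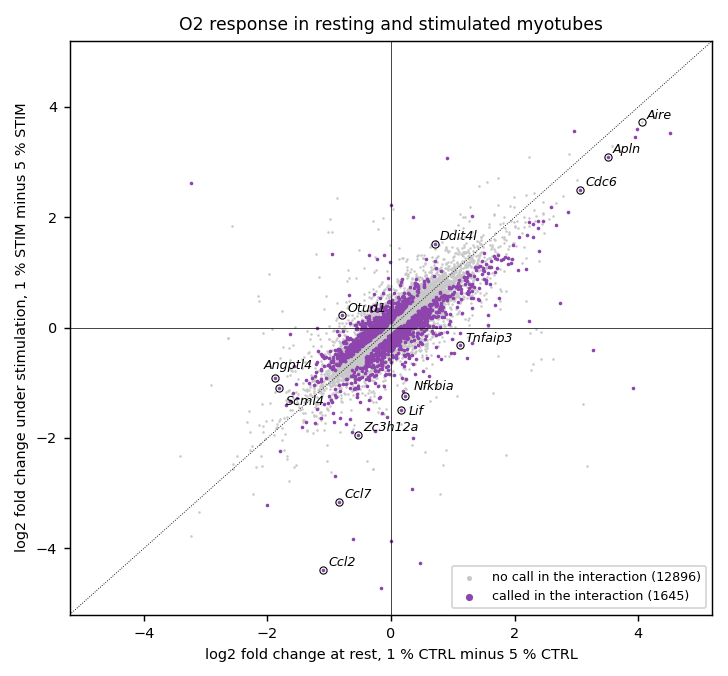
Each point is 1 of 14541 genes, with its log2 fold change at rest (1 % CTRL minus 5 % CTRL) on the x axis and under stimulation (1 % STIM minus 5 % STIM) on the y axis. Genes called in the interaction (1645) are purple and the dotted line marks equal change, with Ccl2, Ccl7, Lif, Nfkbia and Tnfaip3 lying below it.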

How the data were processed

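The study sequenced polyadenylated RNA of 24 C2C12 cultures in 1 pool of single-end libraries made with a stranded kit. According to the methods, the authors checked reads with FastQC 0.11.7, aligned them to GRCm38 with STAR 2.5.4b and quantified them with RSEM 1.3.0 at default settings, which are not stated to use strand. The deposited values are signal in the form of gene counts divided by DESeq2 size factors. Dividing by each library's smallest step gave whole reads for 100 % of values (tolerance 0.01).

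All 4 groups were fitted together in limma 3.58.1 (R 4.3.3) on log2(normalized count + 1) with trend and robust settings, so log2 fold changes understate those of low genes, and p-values were adjusted over 14541 genes by Benjamini-Hochberg. p-values measure the spread among cultures of 1 line. A further deposited table, of the authors' own comparisons, was not used. The fit was tested on simulated data. Alternatives were edgeR 4.0.16 and DESeq2 1.42.0 on whole reads and the others given at the end. Replicate numbers did not pair the libraries.

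Genes named follow a rule. It takes the 12 largest changes each way with a mean of at least 100 among called genes whose 2 groups did not overlap. It adds up to 3 called genes each way per list with a mean of at least 50, and the 6 largest interactions each way. The rule gives 253 genes, and 149 are named here with values. The marker genes, Mcm5 and Mcm3 lie outside it. The comparison, its 42 lists and the naming rule were chosen with earlier results of these data known. Symbols, positions and antisense overlap come from GENCODE M21 on GRCm38, promoters from RefSeq and pathways from Reactome.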

Additional observations from a re-analysis of the deposited data

Results flagged for a closer look

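A single library lay apart from the other 5 of its group, by the ratio of its gap to the range of the group, in 37 of the 298 groups formed by the named genes at rest, where chance gives about 1 in 20. Replicate 1 of 1 % CTRL was that library in 24 of the 37. Its normalized count was above the others for Ampd3 (1196), Bcl2 (529), Brca1 (583), Brip1 (297), Cdc6 (788), Eya4 (3554), Kdm3a (6319), Met (2307), Plod2 (11760), Rora (517), Stard4 (2153), Timeless (479) and Uhrf1 (2580). It was below the others for Cbx6 (3046), Ccn2 (11422), Higd1a (1732), Jph2 (13184), Lars2 (5097), Myod1 (1491), Myog (17829), Rplp1 (5527), Rrs1 (895), Slc7a5 (4903) and Tcap (401). This library also had the highest exon-length slope and S phase median, as given above, and their part in these values was not tested.

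The other libraries set apart were few. Replicate 2 of 1 % CTRL was apart for Ch25h (48.9). Replicate 3 of 1 % CTRL was apart for Zfp36l2 (2157). Replicate 1 of 5 % CTRL was apart for Bcl2 (313), Col11a1 (690), E2f2 (6402) and Tnc (107982). Replicate 3 of 5 % CTRL was apart for Proser2 (54.5) and Scml4 (1523). Replicate 4 of 5 % CTRL was apart for Six5 (69.6). Replicate 5 of 5 % CTRL was apart for Jph2 (10193). Replicate 6 of 5 % CTRL was apart for Exo1 (52.3), Slc30a1 (1172) and mt-Nd1 (73689).

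The response to O2 differed between stimulated and resting myotubes, by the interaction in limma, in 57 of the 149 named genes. Of all genes tested, 11.3 % were called. The rule names genes for large changes at rest and some for large interactions, so this count and its signs are not a result about these genes. The difference, stimulated minus rest on the log2 scale, was positive in 14, namely Otud1 (1.01), Angptl4 (0.97), Ddit4l (0.82), Scml4 (0.71), Pdk4 (0.66), mt-Nd2 (0.46), mt-Nd1 (0.42), Sirt1 (0.33), Ereg (0.31), Gclc (0.31), Tnc (0.29), Brd2 (0.24), Rrs1 (0.21) and E2f2 (0.14). It was negative in 43, namely Ccl2 (−3.28), Ccl7 (−2.32), Lif (−1.65), Nfkbia (−1.46), Tnfaip3 (−1.43), Zc3h12a (−1.41), Irf1 (−1.28), Ier3 (−1.26), Ch25h (−1.21), Cables1 (−0.80), Triobp (−0.77), Brip1 (−0.70), Higd1a (−0.64), Exo1 (−0.63), Vegfa (−0.59), Cdc6 (−0.56), Zfp36l2 (−0.51), Ampd3 (−0.51), Stard4 (−0.49), Ciart (−0.49), Brca1 (−0.47), Slc16a3 (−0.47), Egln3 (−0.46), Kcnj2 (−0.46), Pdk3 (−0.41), Spred2 (−0.41), Rora (−0.40), Apln (−0.40), Plod2 (−0.40), Kbtbd11 (−0.39), Ccnd2 (−0.39), Per2 (−0.38), P4ha2 (−0.37), Pcgf5 (−0.35), Pdk1 (−0.34), Tet1 (−0.33), Thbs1 (−0.31), Hist1h1c (−0.31), P4ha1 (−0.24), Met (−0.23), Rbm15 (−0.22), Csf1 (−0.22) and Srsf7 (−0.13).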

How the results depend on the processing

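Genes called at rest numbered 7384 to 9047 over the alternatives, against 8708. The count changed at least 2-fold, 779, was 428 (285 higher and 143 lower) with a pseudocount of 10 and 1144 with no filter on low counts, and the interaction count, 1645, was 830 (369 higher and 461 lower) at an adjusted p under 0.01 and 2316 without replicate 1 of 1 % CTRL. edgeR and DESeq2 on whole reads called 8744 and 8630 genes at rest. Of the named genes' values, 1485 kept direction and side of the threshold, 0 reversed and 5 lost the call. These 5 were Rplp1 with no filter, with only the libraries compared and at 0.01, and Lars2 and Lif at 0.01. The named genes were chosen among those called in the main fit on the same libraries, so kept calls were likely in advance. The median log2 fold change of a list moved by less than its standard deviation among libraries of a group in 319 values. It moved by at least as much in 59. The interaction could not be had from only the libraries compared, and leaving out replicates was limited to replicate 1 of 1 % CTRL. Low depth limits genes with few reads, and one cell line limits all values.

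Same-numbered libraries did not deviate together, with correlations of −0.0333 to 0.0875, so the replicate numbers do not pair the libraries. With the replicate block, 8730 genes were called at rest, 779 by at least 2-fold, 8350 under stimulation and 1710 in the interaction.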
